A study of Mus musculus with 24 samples.

Results

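The genes described here are 8 genes of the phosphagen and oxygen-buffering system of muscle: the creatine kinases Ckm, Ckb, Ckmt1 and Ckmt2, myoglobin (Mb), AMP deaminase 1 (Ampd1), adenylate kinase 1 (Ak1) and the creatine transporter Slc6a8. They were taken by name from the 24043 genes of the deposited expression table, and all 8 were found in it. The cells were C2C12, an established mouse myoblast line that forms multinucleated myotubes when serum is lowered. RNA libraries were made in 4 groups of 2 biological replicates, A and B: growth medium (GM, with 10% fetal bovine serum, cells kept below confluence) and differentiation medium (DM, with 2% horse serum and ITS), each at 21% or 2% oxygen. No genetic change, vector or drug is named for any group. GM and DM cultures also differ in serum and in how the cells were plated and kept, and effects of these cannot be told apart from each other. The number of days in DM is not given in the sources used here, the whole study rests on 1 cell line, and the H3K27me3 ChIP libraries and their input DNA were not analysed here. Of the 8 genes, 6 reached a mean of at least 1 FPKM (fragments per kilobase of transcript, scaled to the mapped fragments of the library) in at least 1 group and were tested together with all 12389 genes that did. Ckmt1 and Ampd1 did not reach it. Ckmt2 and Mb reached it through DM at 21% oxygen alone, so a difference of that group from the others was built into their being tested.

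Creatine kinases move a phosphate group between ATP and creatine, so that phosphocreatine can refill ATP where it is spent. The cytosolic subunits are Ckm (muscle) and Ckb (brain, also made by many other cells and by myoblasts), and the mitochondrial enzymes are Ckmt1 (ubiquitous) and Ckmt2 (sarcomeric). Myoglobin binds oxygen in muscle cytosol, Ak1 makes ATP and AMP from ADP, Ampd1 converts the AMP to IMP, and Slc6a8 carries creatine into the cell. In textbook accounts of myogenesis, Ckb gives way to Ckm as myoblasts become myotubes.

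The libraries had comparable depth, between 0.633 and 1 of the deepest library. Log2 values of replicates correlated across genes with r between 0.958 and 0.983. The DM pair at 2% oxygen stood apart: 613 genes differed more than 2-fold between its replicates, against 56 to 71 in the other groups. Its replicate B also carried more transcripts of dividing cells. Mki67, Ccnb1 and Top2a summed to 70.2 FPKM in B and 12.3 in A, and in the other groups to 90.4 and 109 (GM 21%), 18.3 and 19.5 (DM 21%) and 62.1 and 51.6 (GM 2%). Myog, the transcription factor of muscle differentiation, stood at 2576 and 2642 FPKM in DM at 21% oxygen and at 0.342 to 13.3 elsewhere, and Slc2a1, a glucose transporter known to rise in hypoxia, stood at 348 to 599 FPKM in the 2% libraries and at 42.9 to 58.5 in the 21% libraries. The 6 myoblast and myotube markers summed to 433 and 357 FPKM in GM at 21%, to 3716 and 3752 in DM at 21%, to 97.6 and 105 in GM at 2% and to 55.0 and 79.4 in DM at 2%. The DM libraries at 2% thus lacked the muscle marker level that DM gave at 21%. Within 2% oxygen the 6 markers did not move together. From GM to DM the mean rose for Myog (0.392 to 3.32 FPKM), Myh3 (0.0258 to 0.675) and Tnnt1 (2.41 to 4.52). It fell for Myod1 (25.6 to 9.38 FPKM), Des (63.3 to 40.8) and Myf5 (9.72 to 8.51). Defining markers of adipocytes, endothelium, neurons and erythroid cells stayed below a mean of 1 FPKM in every group. Of 3 leukocyte markers only Cd68 reached that level, with Cd3e at 0 in every library and Ptprc at 0 in all but 1. Cd68 stood at 25.8 and 42.8 FPKM in DM at 2% and at 1.76 to 3.57 elsewhere. Of 3 osteoblast markers only Bglap reached that level, with Sp7 and Ibsp below 0.2. Bglap stood at 93.1 and 75.5 FPKM in DM at 21% and at 0.533 to 6.66 elsewhere.

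There were 5 comparisons, which share libraries and are not independent of each other: DM against GM at each oxygen level, 2% against 21% oxygen in each medium, and the interaction, which is the DM effect at 2% minus that at 21%. Changes are differences of mean log2(FPKM + 1) with their standard error (SE), which understate the fold change of low genes. A call means a Benjamini-Hochberg adjusted p under 0.05 in limma over all 12389 genes. Calls were common. At 21% oxygen the DM effect was called in 66.5% of genes, 25.5% higher and 41% lower. At 2% oxygen it was called in 40.9%, 23.3% higher and 17.6% lower. Hypoxia was called in 41.4% of genes in GM, 13.5% higher and 28% lower, and in 65.2% in DM, 37.5% higher and 27.7% lower. The interaction was called in 54.1%, 35.4% higher and 18.7% lower. The split depended on how libraries were scaled: the share of calls that were higher moved from 38.4% to 53.6% (DM effect at 21%), from 57.5% to 46.5% (hypoxia in DM) and from 65.5% to 47.3% (interaction) with median-of-ratios scaling, and from 32.6% to 49.3% in GM hypoxia with upper-quartile scaling. Median changes over all tested genes of -0.20, -0.14, 0.15 and 0.27 (DM effect at 21%, GM hypoxia, DM hypoxia, interaction) became 0.03, -0.04, -0.03 and -0.01 with median-of-ratios scaling. Small changes are to be read against those shifts, and every count over a gene list below against the shares of all genes called.

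The 4 promoters below are shown because 3 of these genes, Ckm, Mb and Ckmt2, had high levels in the same group, while Ckb did not. Each runs from 250 bases before to 50 after a RefSeq transcription start in GRCm38.p6, a later build than the mm9 named for the expression data. Capitals mark E-boxes (CANNTG, the same on both strands), the letters that myogenic bHLH factors such as MyoD and myogenin can bind. Mb has 3 annotated starts, of which the furthest downstream is shown.
Ckm, chr7:19410844-19411143, plus strand: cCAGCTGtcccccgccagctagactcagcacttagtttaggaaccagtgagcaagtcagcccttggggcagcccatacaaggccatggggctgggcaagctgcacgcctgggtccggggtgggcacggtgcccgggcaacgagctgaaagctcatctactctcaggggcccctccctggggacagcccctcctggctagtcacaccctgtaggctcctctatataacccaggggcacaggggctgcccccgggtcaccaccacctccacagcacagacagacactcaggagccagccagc
Mb, chr15:77022678-77022977, minus strand: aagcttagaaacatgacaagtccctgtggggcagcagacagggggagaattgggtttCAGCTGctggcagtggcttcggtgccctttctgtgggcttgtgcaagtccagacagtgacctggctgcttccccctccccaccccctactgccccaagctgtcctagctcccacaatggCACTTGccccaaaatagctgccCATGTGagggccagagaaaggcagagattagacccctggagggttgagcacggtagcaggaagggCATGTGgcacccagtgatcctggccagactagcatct
Ckmt2, chr13:91876836-91877135, minus strand: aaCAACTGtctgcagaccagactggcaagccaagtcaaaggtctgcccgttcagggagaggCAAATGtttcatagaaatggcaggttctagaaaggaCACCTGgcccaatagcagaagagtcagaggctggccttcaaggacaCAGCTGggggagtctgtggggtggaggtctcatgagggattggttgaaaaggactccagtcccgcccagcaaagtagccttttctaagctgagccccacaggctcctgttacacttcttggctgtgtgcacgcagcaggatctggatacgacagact
Ckb, chr12:111672289-111672588, minus strand: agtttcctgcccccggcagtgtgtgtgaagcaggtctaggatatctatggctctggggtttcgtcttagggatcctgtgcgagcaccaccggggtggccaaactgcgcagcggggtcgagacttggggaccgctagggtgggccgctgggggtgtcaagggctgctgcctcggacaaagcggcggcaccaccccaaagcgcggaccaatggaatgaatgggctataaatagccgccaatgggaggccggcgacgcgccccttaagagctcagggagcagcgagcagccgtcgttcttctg

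Of the 8 genes, 6 matched the promoter table, and Ampd1 and Slc6a8 did not. The Ckm window held 1 E-box, CAGCTG, 249 bases before the start, and TATAA 29 bases before it. The Mb window held 4 E-boxes, 193, 74 and 52 bases before the start and 14 after it, and the Ckmt2 window also held 4, 248, 189, 153 and 107 bases before the start. The Ckb window held none. It held a match to the MEF2 motif, CTATAAATAG, 29 bases before the start, overlapping a TATAA. Windows not shown held E-boxes too: 3 and 2 at the other Mb starts, and 3, 1, 2 and 1 at the 4 Ak1 starts. The 2 Ckmt1 starts had 1 and 0. An Ak1 window also held a match to the MEF2 motif. On either strand, GCGTG occurred in the Ckm and Ckmt2 windows and ACGTG in none of the 4 windows shown (both are forms of the core of the hypoxia response element). Among all 32851 promoters of the table, 72.3% held an E-box, 24.9% TATAA, 32.4% GCGTG, 19.6% ACGTG and 3.19% the MEF2 motif, so an E-box in such a window is the usual case. These are matches of letters, not measured binding sites.

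Ckm, the muscle creatine kinase, was among the most abundant transcripts of DM at 21% oxygen and nearly absent in DM at 2%. It measured 1.23 and 0.990 FPKM in GM at 21% (replicates A and B), 400 and 421 in DM at 21%, 0.0400 and 0.0847 in GM at 2%, and 0.855 and 0.0563 in DM at 2%. Both DM libraries at 21% lay far above the other 6, and the mean of 410 ± 15.3 FPKM (SD, n = 2) ranked 184 of 12389 tested genes. At 21% oxygen the mean in DM was 370-fold that in GM, a log2 change of 7.61 ± 0.25 (limma adjusted p = 1.32e-06). In DM the mean at 2% was 901-fold lower than at 21%, with a log2 change of -8.20 ± 0.25 (limma adjusted p = 8.51e-07). The interaction was -7.21 ± 0.35 (limma adjusted p = 1.6e-05). In these bulk libraries, fewer cells that express a gene and less of its RNA per cell cannot be told apart.

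At 2% oxygen the Ckm values rest on very few fragments. Low FPKM values of a gene are whole multiples of the worth of 1 fragment, which gave 24 and 25 Ckm fragments in GM at 21%, 1 and 2 in GM at 2%, and 24 and 1 in DM at 2%. The replicates of the last group therefore differed by a ratio of 15.2 (A over B, 95% exact interval 2.48 to 624, counting error only). Against the DM 21% mean, replicate A was 480-fold lower, and no fold is given for replicate B, which rests on 1 fragment. The DM effect at 2% oxygen was not called (0.40 ± 0.25, limma adjusted p = 0.239). It turned on that pair: it was -0.01 without replicate A and 0.80 without replicate B, the latter with a limma adjusted p of 0.00300. In GM the 2% libraries lay below the 21% libraries, as in 50% of tested genes. The fragment ratio of 21% over 2% was 17.7 (95% exact interval 5.72 to 89.0, counting error only, 49 against 3 fragments). The log2 change was -0.99 ± 0.25 (limma adjusted p = 0.0184). That call ended when any 1 of the 4 GM libraries was left out, with limma adjusted p between 0.0576 and 0.0982 (GM 21% replicates A and B and GM 2% replicates A and B in turn).

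**Figure D1:**
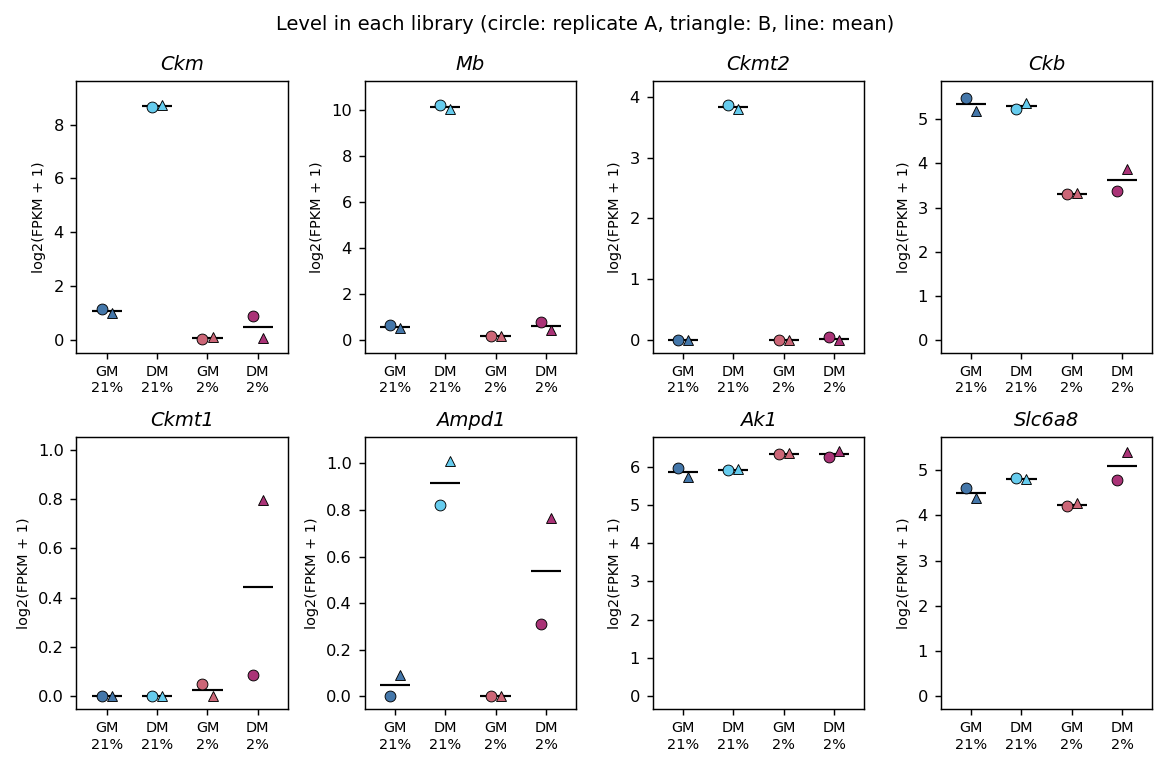
Level of each of the 8 genes in the 8 RNA libraries, on a log2(FPKM + 1) axis that differs between panels (circle, replicate A; triangle, replicate B; line, group mean). Ckm, Mb and Ckmt2 are high in DM at 21% oxygen alone, Ckb is lower in all 4 libraries at 2% oxygen, and Ak1 is slightly higher in them.

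Ckb, the brain-type cytosolic subunit, followed oxygen rather than medium in the called comparisons. Its levels were 43.4 and 35.5 FPKM in GM at 21%, 36.6 and 40.4 in DM at 21%, 8.84 and 9.06 in GM at 2%, and 9.34 and 13.6 in DM at 2%. The 4 libraries at 21% overlapped between media, and all 4 libraries at 2% lay below them. In GM the mean fell 4.41-fold at 2% oxygen, a log2 change of -2.02 ± 0.18 (limma adjusted p = 0.000333). In DM it fell 3.35-fold, a log2 change of -1.68 ± 0.18 (limma adjusted p = 0.00021). Over all alternatives these 2 changes ranged from -2.16 to -1.85 and from -1.93 to -1.43, and each stayed called. The difference between the 2 oxygen effects, the interaction, was 0.34 ± 0.25 (95% interval -0.26 to 0.94, limma adjusted p = 0.291). It was 0.59 with a limma adjusted p of 0.0255 without DM 2% replicate A.

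No DM effect on Ckb was called at either oxygen level. At 21% the log2 change was -0.03 ± 0.18 with a 95% interval of -0.45 to 0.39 (limma adjusted p = 0.891), and its sign depended on scaling and on which library was left out. At 2% it was 0.31 ± 0.18 with a 95% interval of -0.12 to 0.73 (limma adjusted p = 0.21). Both DM libraries at 2% lay above both GM libraries there, which 40% of tested genes also showed, and without DM 2% replicate A the change was 0.56 (limma adjusted p = 0.0159). Thus the Ckb transcript kept a level of 36.6 to 40.4 FPKM in the DM libraries in which Ckm stood at 400 and 421.

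Of the mitochondrial creatine kinases, Ckmt2 (sarcomeric) was detected almost only in DM at 21% oxygen. It measured 13.6 and 12.9 FPKM there, 0.0336 in replicate A of DM at 2%, and was listed at 0 in the other 5 libraries. The log2 change of DM at 21% was 3.83 ± 0.08 (limma adjusted p = 3.03e-07), that of 2% oxygen in DM -3.81 ± 0.08 (limma adjusted p = 2.62e-07), and the interaction -3.81 ± 0.12 (limma adjusted p = 2.91e-06). No fold is given against values listed at 0. At 2% oxygen the DM effect was 0.02 ± 0.08 (limma adjusted p = 0.854).

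Ckmt1 (ubiquitous) was near the limit of detection and had its highest values in DM at 2% oxygen. It was listed at 0 in all 4 libraries at 21% oxygen, at 0.0350 FPKM (1 fragment) and 0 in GM at 2%, and at 0.0622 (2 fragments) and 0.738 (15 fragments) in DM at 2%. A count of 0 in those libraries allows up to 3 fragments, between 0.104 and 0.137 FPKM. Replicate B of DM at 2% thus held most of the fragments, 11.9 times the level of replicate A (95% exact interval 2.76 to 107). Ckmt1 was not among the tested genes. In the fit without an expression filter its DM effect at 2% was 0.42 ± 0.21 (limma adjusted p = 0.204) and its hypoxia effect in DM 0.44 ± 0.21 (limma adjusted p = 0.134), neither called.

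Summed over the 4 genes on the FPKM scale, which is per length, creatine kinase transcripts were most abundant in DM at 21% oxygen and least abundant at 2%. The sums were 44.6 and 36.5 FPKM in GM at 21%, 450 and 475 in DM at 21%, 8.92 and 9.15 in GM at 2%, and 10.3 and 14.4 in DM at 2%. Their make-up changed with the same group. Ckb made up 97.2% and 97.3% of the sum in GM at 21%, 8.13% and 8.50% in DM at 21%, 99.2% and 99.1% in GM at 2%, and 90.8% and 94.5% in DM at 2%. Ckm made up 88.9% and 88.8% in DM at 21% and at most 8.30% in any other library, that maximum in replicate A of DM at 2%, where replicate B had 0.390%. The mitochondrial share was 3.01% and 2.71% Ckmt2 in DM at 21%, and 0.605% and 5.11% Ckmt1 in DM at 2%. Shares in the 2% libraries rest on a sum near 10 FPKM and on few fragments of each gene other than Ckb. Ckm exceeded Ckb 10.9-fold and 10.4-fold in DM at 21%, and Ckb exceeded Ckm 35.2-fold and 35.9-fold in GM at 21%.

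**Figure D2:**
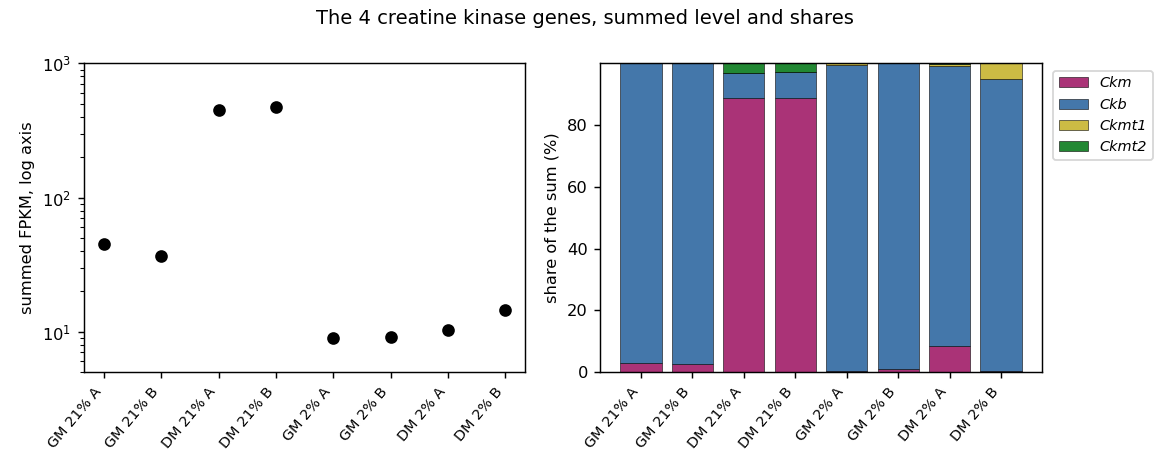
Left, summed FPKM of Ckm, Ckb, Ckmt1 and Ckmt2 in each RNA library, on a log axis. Right, the share of each gene in that sum in percent. The 2 DM libraries at 21% oxygen hold 450 and 475 FPKM, mostly Ckm, and the other 6 hold 8.92 to 44.6 FPKM, mostly Ckb.

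Genes that anchor muscle creatine kinase in the sarcomere were summarised from a list of 4, the M-band proteins Myom1, Myom2 and Myom3 and the LIM protein Fhl2. In DM at 21% oxygen 3 of 4 were called higher and none lower (25.5% and 41% of all genes; median log2 change 4.80). With 2% oxygen in DM 3 of 4 were called lower (27.7% of all genes; median -4.81). Myom1 and Myom3 reached 1 FPKM only in DM at 21%, so these counts describe the list and carry no test. Myom2 measured 0.770 and 0.564 FPKM in GM at 21%, 475 and 481 in DM at 21%, 0.244 and 0.129 in GM at 2%, and 1.85 and 1.98 in DM at 2%. It was also the 1 gene of the list called for the DM effect at 2%, by 1.30 ± 0.11 (limma adjusted p = 0.000493), beside 8.17 ± 0.11 at 21% (limma adjusted p = 1.82e-07). Its log2 change with 2% oxygen was -7.36 ± 0.11 in DM (limma adjusted p = 1.40e-07). In GM it was -0.49 ± 0.11 (limma adjusted p = 0.0116), a call that ended without GM 21% replicate A (0.0534) or GM 2% replicate B (0.0796).

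Mb, which encodes the oxygen-binding protein of muscle, had the highest level of the 8 genes and the widest range. It measured 0.570 and 0.440 FPKM in GM at 21%, 1182 and 1040 in DM at 21%, 0.127 and 0.135 in GM at 2%, and 0.735 and 0.357 in DM at 2%. In DM at 21% its mean of 1111 ± 99.9 FPKM (SD, n = 2) ranked 57 of 12389 tested genes, and both libraries lay far above the other 6, none of which reached 1 FPKM. The mean was 2201-fold that in GM at 21%, a log2 change of 9.53 ± 0.14 (limma adjusted p = 1.82e-07). With 2% oxygen in DM it was 2034-fold lower, a log2 change of -9.50 ± 0.14 (limma adjusted p = 1.4e-07), and 1512-fold and 3108-fold lower in replicates A and B taken singly. The interaction was -9.09 ± 0.20 (limma adjusted p = 1.96e-06).

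The smaller Mb differences rested on few fragments, 7 and 7 in GM at 21%, 2 and 2 in GM at 2%, and 13 and 4 in DM at 2%. At 2% oxygen both DM libraries lay above both GM libraries, as in 40% of tested genes. The fragment ratio of DM over GM was 4.50 (95% exact interval 1.47 to 18.4, counting error only, 17 against 4 fragments). The log2 change of 0.44 ± 0.14 was called (limma adjusted p = 0.0479). It kept its direction in all 14 alternatives and its call in 3, with limma adjusted p between 0.00833 and 0.163. In GM both 2% libraries lay below both 21% libraries, as did 50% of tested genes. The fragment ratio of 21% over 2% was 3.80 (95% exact interval 1.19 to 15.9, counting error only, 14 against 4 fragments). The log2 change of -0.41 ± 0.14 was not called (limma adjusted p = 0.0589). It was called in 5 of 14 alternatives, among them a pseudocount of 0.1 (-1.38, limma adjusted p = 0.00881) and the fit with a replicate block (limma adjusted p = 0.0490).

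The other globins were low. Of 10 listed, 9 were in the table and 2 were tested, and the 5 listed as Hba-x, Hbb-b1, Hbb-bs, Hbb-bt and Hbb-y were at 0 in every library. Cygb (cytoglobin), found in many cell types, measured 1.49 and 0.991 FPKM in GM at 21%, 0.297 and 0.710 in DM at 21%, 0.137 and 0.145 in GM at 2%, and 0.0203 and 0 in DM at 2%. It reached a mean of 1 FPKM in GM at 21% alone, so a lower level elsewhere was built into its being tested. With 2% oxygen in GM it fell by 0.96 ± 0.16 on the log2 scale (limma adjusted p = 0.00394). Its falls with DM at 21% (-0.58, limma adjusted p = 0.0168) and with 2% oxygen in DM (-0.56, limma adjusted p = 0.0196) each ended without 1 of 2 libraries: GM 21% replicate A (0.0931) or DM 21% replicate A (0.0732) for the first, DM 21% replicate B (0.0852) or DM 2% replicate B (0.0517) for the second. Hba-a1, an alpha-globin gene with a near-identical copy, Hba-a2, so that its value is uncertain, measured 1.84 and 0.877 FPKM in GM at 21%, 0.0711 and 0.0566 in DM at 21%, 0.199 and 0.144 in GM at 2%, and 0.729 and 3.85 in DM at 2%. Its rise with 2% oxygen in DM (1.45 ± 0.45, limma adjusted p = 0.0265) ended without either DM 21% replicate (0.104 and 0.109). No globin other than Mb exceeded 3.85 FPKM in any library.

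**Figure D3:**
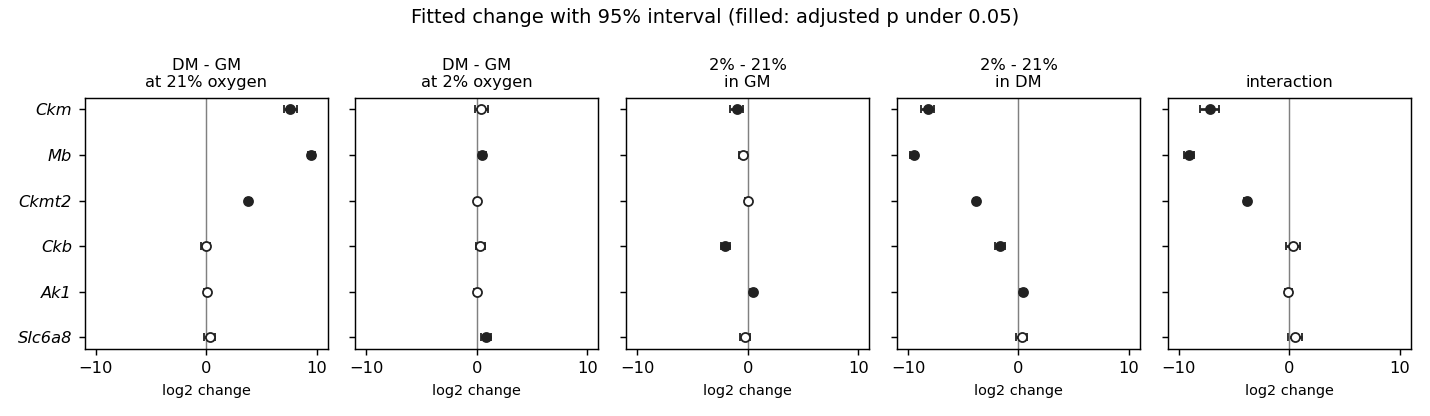
Fitted log2 change of the 6 tested genes in the 5 comparisons, on the log2(FPKM + 1) scale, with 95% intervals (filled, limma adjusted p under 0.05). Ckm, Mb and Ckmt2 lie far right of 0 for DM at 21% oxygen and far left for 2% oxygen in DM, and Ckb lies left of 0 for both oxygen comparisons.

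Ak1, the adenylate kinase of muscle cytosol, was abundant in every group and changed little. It measured 61.9 and 51.7 FPKM in GM at 21%, 58.9 and 60.0 in DM at 21%, 78.7 and 80.1 in GM at 2%, and 75.0 and 84.0 in DM at 2%. All 4 libraries at 2% lay above all 4 at 21%. The rise with 2% oxygen was 1.40-fold in GM, a log2 change of 0.48 ± 0.10 (limma adjusted p = 0.0107). That call ended without GM 2% replicate A (0.0587) or B (0.0659). In DM the rise was 1.34-fold, a log2 change of 0.41 ± 0.10 (limma adjusted p = 0.0116). It ended without DM 21% replicate A (0.0637) or B (0.0542), and with median-of-ratios scaling, where the change was 0.21 (0.0949).

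The Ak1 effect of DM was 0.07 ± 0.10 at 21% oxygen (95% interval -0.18 to 0.32, limma adjusted p = 0.572) and 0.00 ± 0.10 at 2% (95% interval -0.25 to 0.25, limma adjusted p = 1). With median-of-ratios scaling the change at 21% was 0.34 and called (limma adjusted p = 0.0166). The interaction was -0.07 ± 0.15 (limma adjusted p = 0.705), or -0.39 with that scaling (limma adjusted p = 0.0472).

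Among the other adenylate kinases, Ak4, a mitochondrial form, stood out for its response to oxygen. Of 7 listed genes 6 were in the table and 3 were tested. With 2% oxygen 1 of 3 was called higher and 1 lower in each medium (median log2 change -0.37 in GM and -0.17 in DM). Of all genes, 13.5% were called higher and 28% lower in GM, and 37.5% and 27.7% in DM. Ak4 measured 1.86 and 1.68 FPKM in GM at 21%, 4.21 and 3.69 in DM at 21%, 34.4 and 34.1 in GM at 2%, and 72.7 and 56.7 in DM at 2%. The rise with 2% oxygen was 3.67 ± 0.13 in GM (19.3-fold, limma adjusted p = 1.78e-05) and 3.72 ± 0.13 in DM (16.4-fold, limma adjusted p = 1.86e-06). Ak4 also rose in DM at 21% by 0.83 ± 0.13 (limma adjusted p = 0.00145) and at 2% by 0.89 ± 0.13 (limma adjusted p = 0.00307).

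Ak3, the adenylate kinase of the mitochondrial matrix, went the other way with oxygen. It measured 32.7 and 33.4 FPKM in GM at 21%, 17.6 and 18.1 in DM at 21%, 17.5 and 18.2 in GM at 2%, and 12.3 and 13.5 in DM at 2%. The GM libraries at 21% lay above all others. With 2% oxygen the log2 change was -0.85 ± 0.08 in GM (limma adjusted p = 0.000400) and -0.44 ± 0.08 in DM (limma adjusted p = 0.00264). The DM effect was -0.85 ± 0.08 at 21% (limma adjusted p = 0.000119) and -0.44 ± 0.08 at 2% (limma adjusted p = 0.00621), a call that ended without GM 2% replicate B (0.0544).

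The summed level of Ak1, Ak3, Ak4 and Ak6 was 107 to 116 FPKM at 21% oxygen, 147 and 148 in GM at 2%, and 181 and 183 in DM at 2%. Its make-up also shifted with oxygen. Ak4 made up 1.60% and 1.55% of the sum in GM at 21%, 3.93% and 3.33% in DM at 21%, 23.4% and 23.1% in GM at 2%, and 40.3% and 30.9% in DM at 2%. Ak1 made up 47.5% to 55.1% in the 4 libraries at 21% oxygen, 53.5% and 54.3% in GM at 2%, and 41.5% and 45.9% in DM at 2%. Ak3 made up 16.3% to 30.8% of the sum at 21% and 6.83% to 12.3% at 2%.

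**Figure D4:**
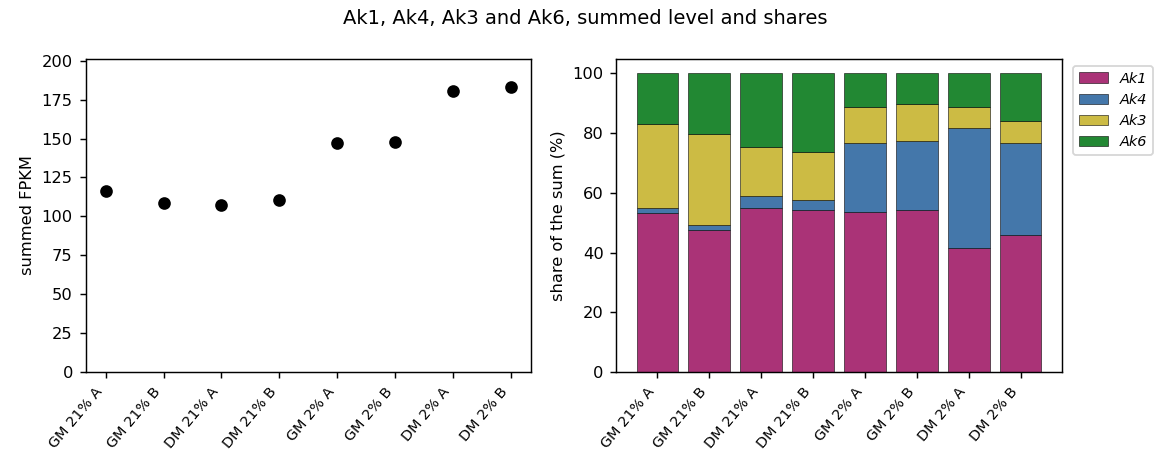
Left, summed FPKM of Ak1, Ak3, Ak4 and Ak6 in each RNA library. Right, the share of each gene in that sum in percent. Ak4 holds at most 3.93% at 21% oxygen and 23.1% to 40.3% at 2%, and Ak1 holds 41.5% to 55.1% throughout.

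Ampd1, the AMP deaminase of muscle, was detected at a low level in both DM groups. It was listed at 0 and at 0.0672 FPKM (3 fragments) in GM at 21%, at 0.768 (26 fragments) and 1.01 in DM at 21%, at 0 in both libraries of GM at 2%, and at 0.242 (12 fragments) and 0.701 (22 fragments) in DM at 2%. At each oxygen level both DM libraries lay above both GM libraries. In DM at 21% the mean was 0.890 ± 0.173 FPKM (SD, n = 2). Its ratio over GM was 23.8 (95% exact interval 7.82 to 118, counting error only, 69 against 3 fragments). At 2% the DM mean was 6.74-fold the level that 3 fragments per library would give in GM. In DM the 2% libraries held less than the 21% libraries, a ratio of 2.15 for 21% over 2% (95% exact interval 1.41 to 3.35, counting error only, 69 against 34 fragments). The ratio was 3.68 for replicate A of DM at 2% alone and 1.27 for replicate B alone. The 2 DM libraries at 2% differed by 2.90 from each other (95% exact interval 1.37 to 6.43), an interval that lies above 1.

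Its mean stayed below 1 FPKM in each group, so Ampd1 was not among the tested genes. In the fit without an expression filter the DM effect was 0.87 ± 0.15 at 21% (limma adjusted p = 0.00419) and 0.54 ± 0.15 at 2% (limma adjusted p = 0.0444). The hypoxia effect in DM was -0.38 ± 0.15 (limma adjusted p = 0.0835), and the interaction -0.33 ± 0.21 (95% interval -0.85 to 0.19, limma adjusted p = 0.276). At levels near 1 FPKM the pseudocount limits how large these changes can be.

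Around Ampd1, 8 enzymes that make or use AMP and adenylosuccinate were listed, and 7 were tested. All 7 were called in DM at 21%, 3 higher and 4 lower (median log2 change -0.38), where 66.5% of all genes were called, 25.5% higher and 41% lower. At 2% oxygen 2 were higher in DM and 3 lower (median -0.17), beside 23.3% and 17.6% of all genes. Hypoxia gave 0 higher and 3 lower calls in GM (median -0.03), beside 13.5% and 28% of all genes. In DM it gave 1 higher and 3 lower (median -0.24), beside 37.5% and 27.7%. Ampd3, an AMP deaminase known from red cells and other tissues, measured 15.0 and 14.3 FPKM in GM at 21%, 12.4 and 9.79 in DM at 21%, 15.2 and 15.2 in GM at 2%, and 42.2 and 42.1 in DM at 2%. It rose in DM at 2% over GM by 1.41 ± 0.11 (limma adjusted p = 0.000444) and over DM at 21% by 1.85 ± 0.11 (limma adjusted p = 1.68e-05). Ampd2, the AMP deaminase of many nonmuscle tissues, measured 29.8 and 26.9 FPKM in GM at 21%, 16.0 and 15.9 in DM at 21%, 15.1 and 15.6 in GM at 2%, and 12.6 and 22.2 in DM at 2%. Its fall with 2% oxygen in GM, -0.84 ± 0.23 (limma adjusted p = 0.0250), ended when any 1 of the GM or DM 21% libraries was left out (0.0590 to 0.121).

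The adenylosuccinate synthetases, which start the return from IMP to AMP, exchanged places with medium at 21%. Adssl1, the muscle form, measured 22.5 and 22.6 FPKM in GM at 21%, 45.1 and 46.8 in DM at 21%, 21.6 and 23.3 in GM at 2%, and 12.3 and 11.9 in DM at 2%. It rose in DM at 21% by 1.00 ± 0.08 (limma adjusted p = 4.76e-05), and with 2% oxygen in DM it changed by -1.84 ± 0.08 (limma adjusted p = 3.02e-06), to levels below those of GM. Adss, the nonmuscle form, measured 38.0 and 42.1 FPKM in GM at 21%, 20.4 and 19.2 in DM at 21%, 40.4 and 37.8 in GM at 2%, and 15.4 and 14.2 in DM at 2%. Its log2 change in DM was -0.98 ± 0.09 at 21% (limma adjusted p = 0.000108) and -1.35 ± 0.09 at 2% (limma adjusted p = 0.000274).

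Slc6a8, the creatine transporter, was present in every group. The DM libraries lay above the GM libraries at both oxygen levels, as in 34.1% of tested genes at 21% and 40% at 2%. Slc6a8 measured 23.4 and 19.9 FPKM in GM at 21%, 27.2 and 26.8 in DM at 21%, 17.4 and 18.4 in GM at 2%, and 26.4 and 41.1 in DM at 2%. At 2% the mean rose 1.88-fold in DM, a log2 change of 0.84 ± 0.19 (limma adjusted p = 0.0151). That call ended without GM 2% replicate A (0.0840) or B (0.0687) and when only the 2 groups compared were fitted (0.0791). At 21% the change of 0.31 ± 0.19 was not called (95% interval -0.15 to 0.78, limma adjusted p = 0.197). It was called in 5 of 14 alternatives, among them median-of-ratios scaling (0.58, limma adjusted p = 0.0149) and upper-quartile scaling (0.44, limma adjusted p = 0.0400).

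Oxygen gave no Slc6a8 call in either medium. The change was -0.26 ± 0.19 in GM (95% interval -0.72 to 0.21, limma adjusted p = 0.332) and 0.28 ± 0.19 in DM (95% interval -0.19 to 0.74, limma adjusted p = 0.248). The DM value rested on replicate B: it was 0.59 with a limma adjusted p of 0.00407 without DM 2% replicate A, and -0.03 without replicate B. The interaction was 0.53 ± 0.28 (limma adjusted p = 0.145), and 0.84 with a limma adjusted p of 0.00314 without that replicate A. Whether the difference between these replicates goes with the Mki67, Ccnb1 and Top2a sums of 12.3 FPKM (A) and 70.2 FPKM (B) was not tested.

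Creatine itself is made by Gatm and Gamt, and both genes were lower at 2% oxygen in each medium (2 of 2 called, median log2 change -1.17 in GM and -1.76 in DM). Of all genes, 28% were called lower in GM and 27.7% in DM. Gatm, which makes guanidinoacetate, measured 15.1 and 17.3 FPKM in GM at 21%, 68.5 and 65.6 in DM at 21%, 7.37 and 7.69 in GM at 2%, and 6.66 and 13.0 in DM at 2%. It rose in DM at 21% by 1.99 ± 0.25 (limma adjusted p = 0.000521) and with 2% oxygen in DM fell by 2.72 ± 0.25 (limma adjusted p = 0.000123). Gamt, which methylates guanidinoacetate to creatine, measured 39.2 and 33.2 FPKM in GM at 21%, 31.7 and 33.4 in DM at 21%, 12.3 and 15.3 in GM at 2%, and 17.3 and 19.2 in DM at 2%. With 2% oxygen in GM it fell by 1.33 ± 0.13 (limma adjusted p = 0.000478). At 2% oxygen neither gene was called for the DM effect. Thus in DM at 2% the transporter stood at 26.4 and 41.1 FPKM, while Gatm and Gamt stood below their 21% libraries.

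**Figure D5:**
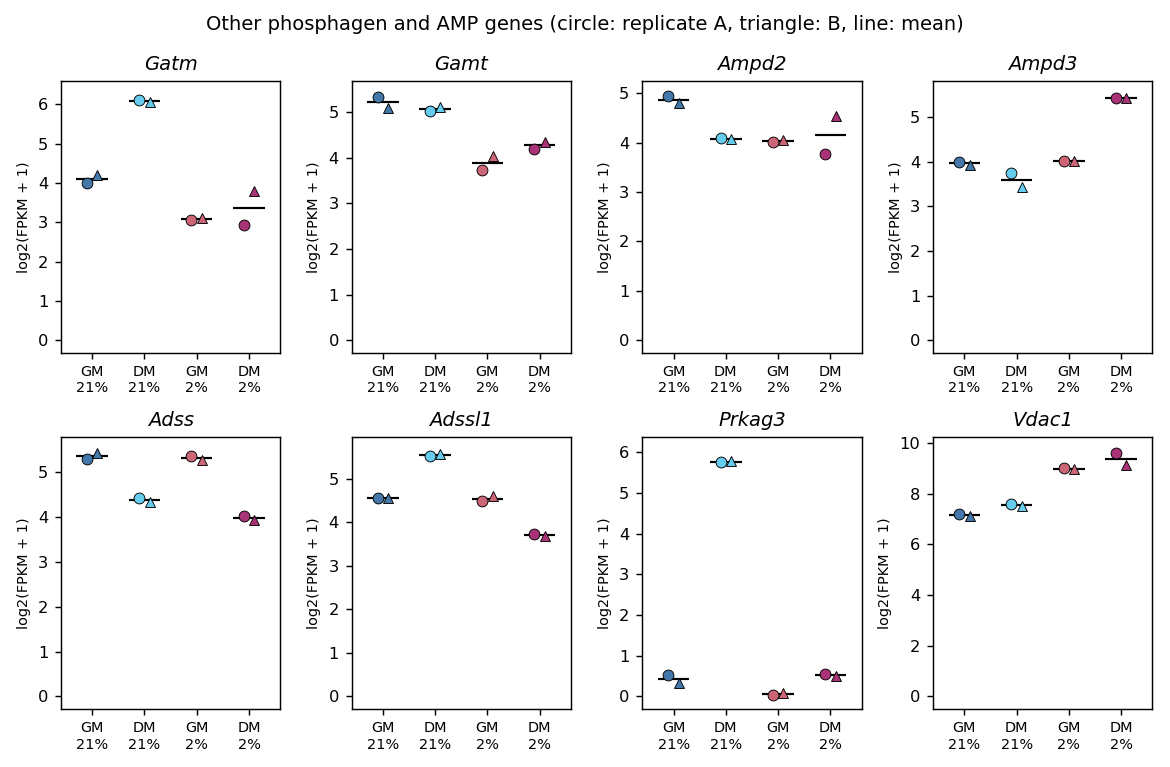
Level of 8 further genes of creatine synthesis, AMP metabolism, AMPK and mitochondrial exchange in the 8 RNA libraries, on a log2(FPKM + 1) axis that differs between panels (circle, replicate A; triangle, replicate B; line, group mean). Gatm and Prkag3 are highest in DM at 21% oxygen, Ampd3 is highest in DM at 2%, and Vdac1 is higher in all 4 libraries at 2%.

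AMPK, the kinase that responds to AMP, has 7 subunit genes, and all were tested. In DM at 21% all 7 were called, 3 higher and 4 lower (median log2 change -0.39), where 66.5% of all genes were called, 25.5% higher and 41% lower. At 2% oxygen 2 were higher in DM and none lower (median -0.06), beside 23.3% and 17.6% of all genes. With 2% oxygen in DM 3 were higher and 2 lower (median 0.27), beside 37.5% and 27.7%. In GM 2% oxygen gave 1 higher and 3 lower calls (median -0.31), beside 13.5% and 28% of all genes. Prkag3, the regulatory subunit of skeletal muscle, measured 0.449 and 0.255 FPKM in GM at 21%, 53.1 and 54.1 in DM at 21%, 0.0184 and 0.0585 in GM at 2%, and 0.459 and 0.414 in DM at 2%. It was tested only because of its level in DM at 21%, as with Mb and Ckmt2. It rose in DM at 21% by 5.34 ± 0.11 (limma adjusted p = 2.11e-07) and with 2% oxygen in DM fell by 5.25 ± 0.11 (limma adjusted p = 1.96e-07). At 2% its DM effect was 0.47 ± 0.11 (limma adjusted p = 0.0142), a call that ended without GM 2% replicate A (0.0880) or B (0.0683). The other regulatory subunits had another pattern. Prkag1 measured 63.3 and 53.9 FPKM in GM at 21% and 27.1 and 26.7 in DM at 21%, then 41.6 and 43.1 in GM at 2% and 50.1 and 55.5 in DM at 2%. It rose with 2% oxygen in DM by 0.95 ± 0.10 (limma adjusted p = 0.000189). Prkag2 had log2 changes of -1.49 ± 0.13 in DM at 21% (limma adjusted p = 8.34e-05) and -0.71 ± 0.13 with 2% oxygen in GM (limma adjusted p = 0.00534). Prkab2, a scaffold subunit, rose with 2% oxygen in GM by 1.30 ± 0.10 (limma adjusted p = 0.000237), from 6.41 and 7.33 FPKM to 18.0 and 18.6.

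Mitochondrial creatine kinase works beside the adenine nucleotide carriers of the inner membrane and the VDAC pores of the outer membrane. Of 5 such genes, all tested, 3 were called higher and 1 lower in DM at 21% (median log2 change 0.37), beside 25.5% and 41% of all genes. In DM at 2%, 2 were called higher (median 0.38), beside 23.3% of all genes. With 2% oxygen 1 was called higher and 3 lower in each medium (median -0.39 in GM and -0.47 in DM). Of all genes, 13.5% were called higher and 28% lower in GM, and 37.5% and 27.7% in DM. Vdac1 measured 147 and 138 FPKM in GM at 21%, 190 and 179 in DM at 21%, 507 and 502 in GM at 2%, and 779 and 557 in DM at 2%. It rose with 2% oxygen by 1.82 ± 0.15 in GM (limma adjusted p = 0.000281) and by 1.83 ± 0.15 in DM (limma adjusted p = 7.11e-05). Slc25a5 measured 234 and 212 FPKM in GM at 21% and 62.7 and 61.9 in GM at 2%, a log2 change of -1.82 ± 0.14 (limma adjusted p = 0.000209). It stood at 302 and 296 in DM at 21% and at 110 and 148 in DM at 2%, the latter above GM at 2% by 1.02 ± 0.14 (limma adjusted p = 0.00211). Vdac3 measured 80.0 and 75.7 FPKM in GM at 21% and 253 and 254 in DM at 21%, a rise of 1.69 ± 0.07 (limma adjusted p = 4.30e-06). With 2% oxygen in DM it fell by 1.24 ± 0.07 (limma adjusted p = 1.41e-05), to 110 and 103. Slc25a4, the carrier form of heart and skeletal muscle, went down in DM at 21%, by a log2 change of -0.64 ± 0.10 (limma adjusted p = 0.00150), from 439 and 368 FPKM to 256 and 260.

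The order of the genes' levels, on the FPKM scale, which is per length, differed between groups. In DM at 21% it ran Mb, Ckm, Ak1, Ckb, Slc6a8, Ckmt2, Ampd1 and Ckmt1, and no neighbours overlapped. In GM at 21% Ak1 led, followed by Ckb, Slc6a8, Ckm and Mb, again without overlap, with Ckmt1 and Ckmt2 both listed at 0. At 2% oxygen Ak1, Slc6a8 and Ckb were the 3 highest in both media and did not overlap, so that Slc6a8 stood above Ckb in all 4 libraries there and below it in all 4 libraries at 21%. Below them in DM at 2%, the ranges of Ckm, Mb, Ampd1 and Ckmt1 overlapped, between 0.0563 and 0.855 FPKM.

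Counted over the 6 tested genes, the DM effect at 21% was called higher in 3 (Ckm, Ckmt2 and Mb) and lower in none, beside 25.5% and 41% of all tested genes. At 2% it was called higher in 2 (Mb and Slc6a8), beside 23.3%. With 2% oxygen in GM 1 was higher (Ak1) and 2 lower (Ckm and Ckb), beside 13.5% and 28%. In DM 1 was higher (Ak1) and 4 lower (Ckm, Ckb, Ckmt2 and Mb), beside 37.5% and 27.7%. The interaction was called lower in 3 (Ckm, Ckmt2 and Mb), beside 18.7%. In DM at 21% 4 of the 6 had both libraries above those of GM (34.1% of all tested genes) and none below (52.9%), and at 2% 3 were above (40%) and none below (30.3%). With 2% oxygen 1 was above and 4 below in GM (27.2% and 50%), and 1 above and 4 below in DM (48% and 35.1%). As Ckmt2 and Mb entered the test only through DM at 21%, these counts describe the genes and carry no test.

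Across the 8 libraries Ckm, Ckmt2 and Mb had nearly the same profile, with Pearson r of log2(FPKM + 1) of 0.994 (Ckm and Ckmt2), 0.997 (Ckm and Mb) and 0.999 (Ckmt2 and Mb), while Ckb and Ak1 ran opposite (r = -0.88). With 1 group far above the other 3, such values mainly state that the same group is high. Among 7864 genes with at least 10 FPKM in their highest group, the profiles most like each member were Tnnt3 (fast troponin T), Hif1an (the asparaginyl hydroxylase that acts on HIF) and Dpt for Ckm (r of 0.999 or above), Actn2, Chil1 and Atcayos for Ckmt2, and Cav3, Hfe2 and Lmod3 for Mb, also above 0.999. For Ckb they were Hadhb (a subunit of mitochondrial fatty acid oxidation, r = 0.998), Camkk2 (0.996) and Crat (carnitine acetyltransferase, 0.995). For Ak1 they were Sema3b (0.986), Tmem66 (0.974) and Phlda3 (0.969), and for Slc6a8 Bloc1s2 (0.993), Ybx1 (0.986) and Mrpl49 (0.983). Likeness of these 8 values depends on scaling: with median-of-ratios scaling the r of Ckb with Hadhb was 0.913.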

How the data were processed

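The 8 RNA libraries were analysed from 1 deposited table of gene FPKM values. The authors aligned reads with STAR 2.5.1b and computed FPKM with Cufflinks 2.2.1 on mm9, per the submitters' processing notes, from stranded total RNA libraries, per the labels' protocols; the annotation is not given in the sources used here. Values were transformed to log2(FPKM + 1), and 12389 of 24043 genes, those whose mean reached 1 FPKM in any group, were fitted with limma 3.58.1 (R 4.3.3, intensity trend, 4 group means, 8 libraries, two-sided) and Benjamini-Hochberg adjustment over all of them at 0.05. The code was tested on simulated data. Replicates are biological per the design text; nothing says they pair across groups. FPKM is relative, so a few very abundant genes or a change in total RNA can shift others.

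Low FPKM values are whole multiples of 1 fragment (tolerance 0.05), which gave fragment counts up to 40, or 43 for Ampd1, and exact 95% intervals covering counting error only; PCR copies are not separated. The members and gene lists were chosen with earlier results of these data known. Named genes are the 8 members, the largest called rise and fall of each pathway list per comparison, Myog, Mki67 and Slc2a1, and the 3 profiles most like each member above 10 FPKM; 1 gene was left out of the adenylate kinase list and is not reported here. Alternatives were another pseudocount (0.1), no filter, 2 scalings, only the groups compared, a replicate block, a log2 change of 1, and leaving out each library.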

Additional observations from a re-analysis of the deposited data

Results flagged for a closer look

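The interaction, the test of whether the DM effect differed between 2% and 21% oxygen, was called in limma for 14 genes that are members or the largest called rise or fall of a pathway list in that comparison. The list genes were picked among called genes, so this count carries no test. Ckmt2, Mb, Prkag3, Myom1 and Myom3 were tested only because of their level in DM at 21%. Among all tested genes the interaction was called in 54.1%, 35.4% higher and 18.7% lower. It was lower at 2% for Ckm (-7.21), Mb (-9.09), Ckmt2 (-3.81), Myom2 (-6.87, limma adjusted p = 1.96e-06), Prkag3 (-4.87, 2.91e-06), Adssl1 (-1.84, 3.53e-05), Gatm (-1.71, 0.00726) and Vdac3 (-1.24, 0.000146). It was higher at 2% for Ampd3 (1.79, limma adjusted p = 0.000187), Prkag1 (1.40, 0.000292), Hba-a1 (2.42, 0.0171), Slc25a4 (0.61, 0.0114), Gamt (0.53, 0.0460) and Ak3 (0.42, 0.0191). Further genes named above were also called: Myog (-6.20, limma adjusted p = 5.18e-05), Myom1 (-4.29, 2.91e-06), Myom3 (-5.16, 1.96e-06), Bglap (-3.36, 0.0227), Prkab2 (-1.02, 0.00141), Adss (-0.37, 0.0460), Cd68 (3.42, 0.000378), Prkag2 (1.17, 0.00202) and Slc25a5 (0.60, 0.0374). So were the muscle markers Myh3 (-5.51, limma adjusted p = 1.10e-05), Tnnt1 (-2.62, 0.000492), Myod1 (-1.92, 0.00259), Des (-1.87, 0.00521) and Myf5 (-0.73, 0.00168).

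Of the members and the largest rises and falls, 4 lost their call under some alternatives. The further genes were not followed through the alternatives in this comparison. With median-of-ratios scaling the limma adjusted p was 0.347 for Gamt, 0.450 for Ak3 and 0.207 for Slc25a4. With upper-quartile scaling it was 0.175, 0.169 and 0.0990 in turn. Without the expression filter it was 0.0643 for Gamt. For Gamt the call also ended without GM 21% replicate A, either DM 21% replicate, GM 2% replicate A or DM 2% replicate B (0.0888 to 0.141), for Ak3 without any 1 of the DM 21% or GM 2% libraries (0.0524 to 0.0766), for Slc25a4 without GM 2% replicate A (0.0525), and for Hba-a1 without GM 21% replicate A or any 1 of the DM 21% or GM 2% libraries (0.0518 to 0.0666).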

How the results depend on the processing

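Of 29 results for the tested members, 13 kept direction and call in every alternative, among them Ckm, Ckmt2 and Mb in DM at 21%, with 2% oxygen in DM and in the interaction, and the fall of Ckb with 2% oxygen in both media. Ckmt2 and Mb were tested only because of their level in DM at 21%, so their stability describes them and carries no test. Direction turned for the following values, none of them called as reported. The Ckb effect of DM at 21% became 0.24 (median-of-ratios scaling), 0.10 (upper-quartile scaling), 0.11 (without GM 21% replicate A) and 0.04 (without DM 21% replicate A). For Ak1, leaving out 1 library gave -0.0583 to 0.199 for the DM effect at 21% (negative without GM 21% replicate B), -0.0807 to 0.0800 at 2% (positive without GM 2% replicate B, 0.0123, or DM 2% replicate A) and -0.199 to 0.0580 for the interaction (positive without GM 21% replicate B or DM 2% replicate A, 0.00963). It gave -0.00797 to 0.804 for the Ckm effect of DM at 2% and -0.0344 to 0.587 for the Slc6a8 effect of hypoxia in DM. Mki67 in DM at 2% ranged from -1.41 (without DM 2% replicate B) to 1.05 (without DM 2% replicate A) and was 0.0133 without GM 2% replicate A. The cause was not tested.

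Requiring a log2 change of 1 as well left 3542 of 8241 genes (DM effect at 21%), 925 of 5073 (at 2%), 1268 of 5135 (hypoxia in GM), 3420 of 8075 (in DM) and 3410 of 6707 (interaction). The DM effect at 2% gave 2867 genes with only the groups compared and 2503 to 6479 on leaving out 1 library, lowest without GM 2% replicate B or A (2673). Hypoxia in GM gave 2989 to 6831, lowest without GM 2% replicate A or B (3077). With a replicate block the 5 counts were 7931, 4453, 4634, 7802 and 6273. A-minus-B differences correlated between groups at -0.17 to 0.04, so no replicate effect shared between groups was seen. Whether the letters pair samples cannot be read from these values. Among the named results the block changed 2 calls, Mb with hypoxia in GM (limma adjusted p = 0.0490) and Gamt in the interaction (0.0655). For the 4 members with a known step, 3 fragments are worth 0.0604 to 0.268 FPKM, depending on gene and library. A value listed at 0 allows levels up to that, and nonzero values below it rest on 1 or 2 fragments.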
